A study of Mus musculus with 2 samples.

Results

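The Ifi200 genes are a mouse gene family on chromosome 1, and the 8 of them described here are Mndal, Ifi203, Ifi204, Ifi205, Ifi207, Ifi209, Ifi211 and Ifi213. They were picked by symbol from the 32285 features of the deposited tables, and each symbol is carried by 1 feature. They were chosen with measured values of these tumors in view, so what follows is a description of their levels and no test of a list. The tumors were subcutaneous grafts of MC38, a colon adenocarcinoma line of C57BL/6 mice, and received repeated intratumoral injections of MSA-2, a non-nucleotide small-molecule agonist of STING, or of the vehicle, saline with DMSO. The vehicle library is labelled untreated and is called that here. Tumors of several mice were pooled for each library, so 1 library stands for each condition and the spread between mice is unknown. Male and female mice were used for this tumor model, and the sex of the pooled animals is not given in the sources used here.

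Droplet-based 3′ single-cell RNA sequencing gave counts of unique molecular identifiers (UMIs). The untreated library held 14386 barcodes and 198135335 UMIs, with a median of 8372 UMIs per barcode, and the MSA-2 library held 14617 barcodes and 204387165 UMIs, with a median of 8661. The libraries shared 53 barcode sequences. After filtering and removal of called doublets, 13305 untreated and 13393 MSA-2 cells were kept.

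Proteins of this family, also called PYHIN or HIN-200 proteins, usually join a pyrin domain, which binds other pyrin domains, to a HIN domain, which can bind DNA. Their genes are known as interferon-inducible and are expressed in many hematopoietic cells, and Aim2, a relative in the same gene cluster, senses cytosolic DNA and starts an inflammasome. STING acts downstream of the DNA sensor cGAS and leads to production of type I interferon, which acts on neighboring cells through its receptor.

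Cells were put into classes by marker genes that include no Ifi200 gene and no gene of the interferon lists. The tumor-like class held 5518 untreated and 5925 MSA-2 cells. The macrophage-like class held 3276 and 786, the monocyte-like class 360 and 744, and the neutrophil-like class 30 and 2131. The fibroblast-like class held 181 and 449 cells, the endothelial-like class 61 and 79, the T cell-like class 1023 and 123, and the NK-like class 124 and 78. The dendritic cell-like (DC-like) class held 145 untreated and 6 MSA-2 cells and was not compared between the libraries. Cells that passed no gate (2322 and 2492) or several gates (265 and 580) were left out of the classes.

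The labels give the cell type of both libraries as tumor cells, while the classes above include leukocytes and stroma. The study's methods instead speak of sorted cells and call the retained barcodes immune cells, without saying how the sort was made. Which cells were sorted cannot be told from these sources, and the tumor-like, fibroblast-like and endothelial-like classes were gated from the deposited barcodes. Epithelial markers were nearly absent from the tumor-like class. Krt18 and Krt19 had no UMI in its untreated cells, and Cldn4 and Krt20 had none in its MSA-2 cells. Its marker list summed to 3471 CPM untreated and 4079 CPM with MSA-2, led by Gng11 at 1556 and 2427 CPM, so the class rests on few markers. Levels are in CPM, the UMIs of a gene in a class scaled to the same total of UMIs for every class and library. The genes with the highest fold over the other classes in the tumor-like class began with Hs3st5 and Cdkn2a, and those of the monocyte-like class included Ifna2, Ifnb1 and Ifna4.

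In the gene annotation (GRCm38, GENCODE M21) the 8 genes lie between positions 173566283 and 174031810 of chromosome 1, a span of 466 kb. Ifi209 is on the plus strand and the other 7 are on the minus strand. Mndal overlaps Ifi203 by 22085 bases on the same strand, with 37 exon bases in common, and holds the whole of Ifi211, 16702 bases, with 0 exon bases in common. Libraries of this kind read the ends of transcripts, and in the last 500 bases 74.1% of the 60-base stretches of Ifi205 occur in another family gene, most often Ifi211, and 72.3% of those of Ifi211 occur in Ifi205. The share was 61.5% for Ifi209, all with Ifi214, 17.9% for Mndal and 10.2% for Ifi213, and 0 for Ifi203, Ifi204 and Ifi207. How reads between such copies were assigned is not given in the sources used here, so the values of Ifi205, Ifi211 and Ifi209, and those of the overlapping Mndal, Ifi203 and Ifi211, are uncertain to that extent.

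**Figure D1:**
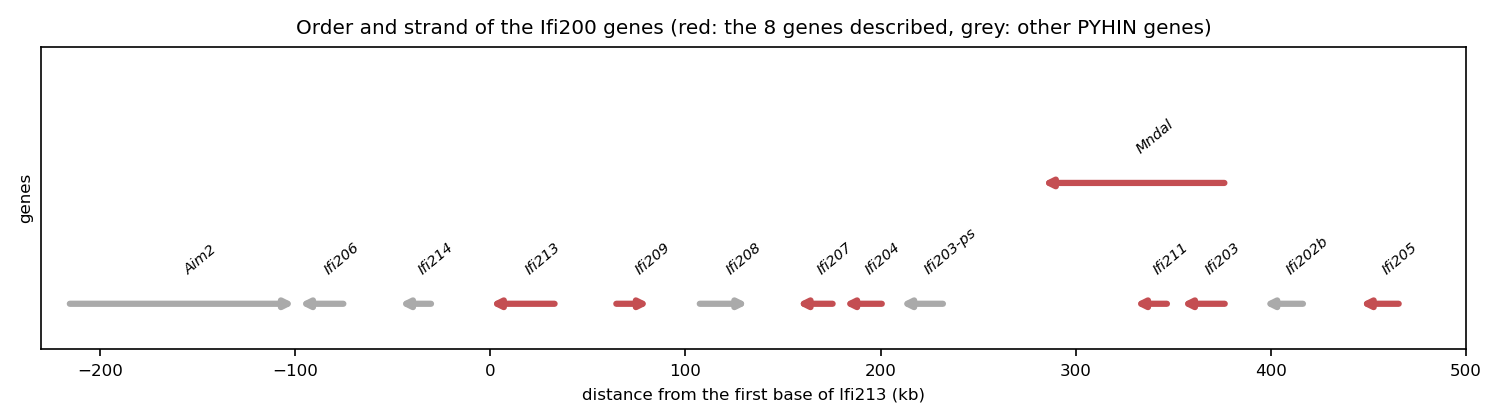
Position of the family genes along the cluster, in kb from the start of Ifi213 on the x axis, with an arrow drawn to scale over each gene and pointing in its direction of transcription. The 8 genes described are red and other PYHIN genes grey, and the long arrow of Mndal spans Ifi211 and most of Ifi203.

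Promoter windows from 250 bases before to 50 bases after the start site were available from RefSeq for 7 of the 8 genes (build GRCm38.p6), and are shown because all 8 genes passed a log2 ratio of 1 in the fibroblast-like, endothelial-like and monocyte-like classes described below. No window was read for Ifi204. The letters GAAANNGAAA (TTTCNNTTTC on the other strand), the core of the interferon-stimulated response element, occur in the windows of Ifi203, Ifi205, Ifi207, Ifi211, Ifi213 and Mndal, and in 3.44% of 32851 promoter windows. The letters AAATCGAAA (TTTCGATTT on the other strand), which can overlap the former, occur in the windows of Ifi203, Ifi207, Ifi209, Ifi213 and Mndal and in 0.125% of all windows, 41 in number. Both also occur in the windows of 3 of 5 other PYHIN genes, Ifi206, Ifi208 and Ifi214, so they are not particular to the 8. The latter letters were chosen after the windows had been read. A match is a description, not a site or a cause. The stretches follow with the matched letters in capitals, each 5′ to 3′ on the strand of its gene. They are Ifi213 at chr1:173599316-173599375 (minus strand), Ifi209 at chr1:173630751-173630809 (plus strand), Ifi207 at chr1:173741821-173741880 (minus strand), Ifi211 at chr1:173913054-173913113 (minus strand), Ifi203 at chr1:173942498-173942557 (minus strand) and Ifi205 at chr1:174031860-174031919 (minus strand), and none of them overlaps an annotated exon. That of Ifi203 lies inside the annotated span of its gene and the others lie outside theirs.
Ifi213: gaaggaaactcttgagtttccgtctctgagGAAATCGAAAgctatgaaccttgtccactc
Ifi209: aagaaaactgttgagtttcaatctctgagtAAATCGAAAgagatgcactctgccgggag
Ifi207: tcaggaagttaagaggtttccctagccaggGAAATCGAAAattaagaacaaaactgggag
Ifi211: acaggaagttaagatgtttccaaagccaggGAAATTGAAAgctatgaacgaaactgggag
Ifi203: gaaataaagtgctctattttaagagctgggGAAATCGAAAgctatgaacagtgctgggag
Ifi205: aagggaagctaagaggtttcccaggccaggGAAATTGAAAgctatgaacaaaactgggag

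The 60 bases around the match of Mndal are identical to those of Ifi203, and all of them lie in an annotated exon of Mndal. Aligned without gaps, the stretch of Ifi211 shared 88.3% of its bases with that of Ifi205 and 85.0% with that of Ifi207, and the stretches of Ifi213 and Ifi209 shared 72.9%. The stretch of Ifi209 shared 67.8% with that of Ifi203, and the stretch of Ifi213 is the same as that of Ifi208, which is not among the 8.

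Summed over the 8 genes, the level was higher in the MSA-2 library in each of the 8 classes compared. Ranges in parentheses are exact 95% intervals and cover counting error only. The family sum was 1261 CPM in the macrophage-like class untreated and 3228 CPM with MSA-2, a log2 ratio of 1.36 (1.33 to 1.39), and 1395 and 4801 CPM in monocyte-like cells, 1.78 (1.72 to 1.85). In fibroblast-like cells it was 833 and 2999 CPM, 1.85 (1.78 to 1.92), and in endothelial-like cells 448 and 1701 CPM, 1.93 (1.74 to 2.12). Myeloid and stromal classes thus held the higher levels under MSA-2.

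T cell-like cells had a family sum of 489 CPM untreated and 1084 CPM under MSA-2, a log2 ratio of 1.15 (1.02 to 1.28), and NK-like cells 400 and 916 CPM, 1.19 (0.98 to 1.41). The tumor-like class had the lowest level in both libraries, 156 and 353 CPM, 1.17 (1.15 to 1.20). These tumor-like values include any free RNA from other classes, described below. Neutrophil-like cells had 602 and 3786 CPM, 2.65 (2.09 to 3.28), but the untreated value rests on 25 family UMIs in 30 cells. Over all kept cells, whose makeup differed between the libraries, the sum was 318 and 770 CPM, 1.27 (1.26 to 1.29).

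The gene counts by class are set beside the share of all genes that passed the same fold, a log2 ratio of 1 or more, counting genes that reached 50 UMIs when the libraries were added. In the fibroblast-like class 8 of 8 genes passed it (6.68% of all genes), in the endothelial-like class 8 of 8 (5.24%) and in the monocyte-like class 8 of 8 (10.8%). In the macrophage-like class 7 of 8 passed (5.52%), and in the neutrophil-like class 7 of 8 (24.1%). The neutrophil-like genes reached 50 UMIs through the MSA-2 library. Untreated neutrophil-like cells had 0 UMIs of Mndal and Ifi213 and 1 UMI each of Ifi203, Ifi209 and Ifi211, so the count in that class is not read. The lymphocyte and tumor-like classes had fewer: 4 of 7 genes with enough UMIs in the T cell-like class (3.87%), 3 of 5 in the NK-like class (4.76%) and 4 of 8 in the tumor-like class (9.37%). Over all cells 7 of 8 passed (9.45%). No gene of the 8 had a log2 ratio of -1 or less in these classes, where that held for 4.93% (endothelial-like) to 27.6% (neutrophil-like) of all genes, so with 8 genes or fewer a count of 0 is near the share over all genes in most classes. Because the genes were chosen with these values known, the shares are given for scale and nothing is read from them.

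Scaling by edgeR TMM factors moves every ratio of a class by 1 amount. That shift was 1.14 on the log2 scale in the neutrophil-like class, 0.30 in the monocyte-like, 0.21 in the fibroblast-like and 0.16 in the endothelial-like class, and within 0.1 elsewhere.

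**Figure D2:**
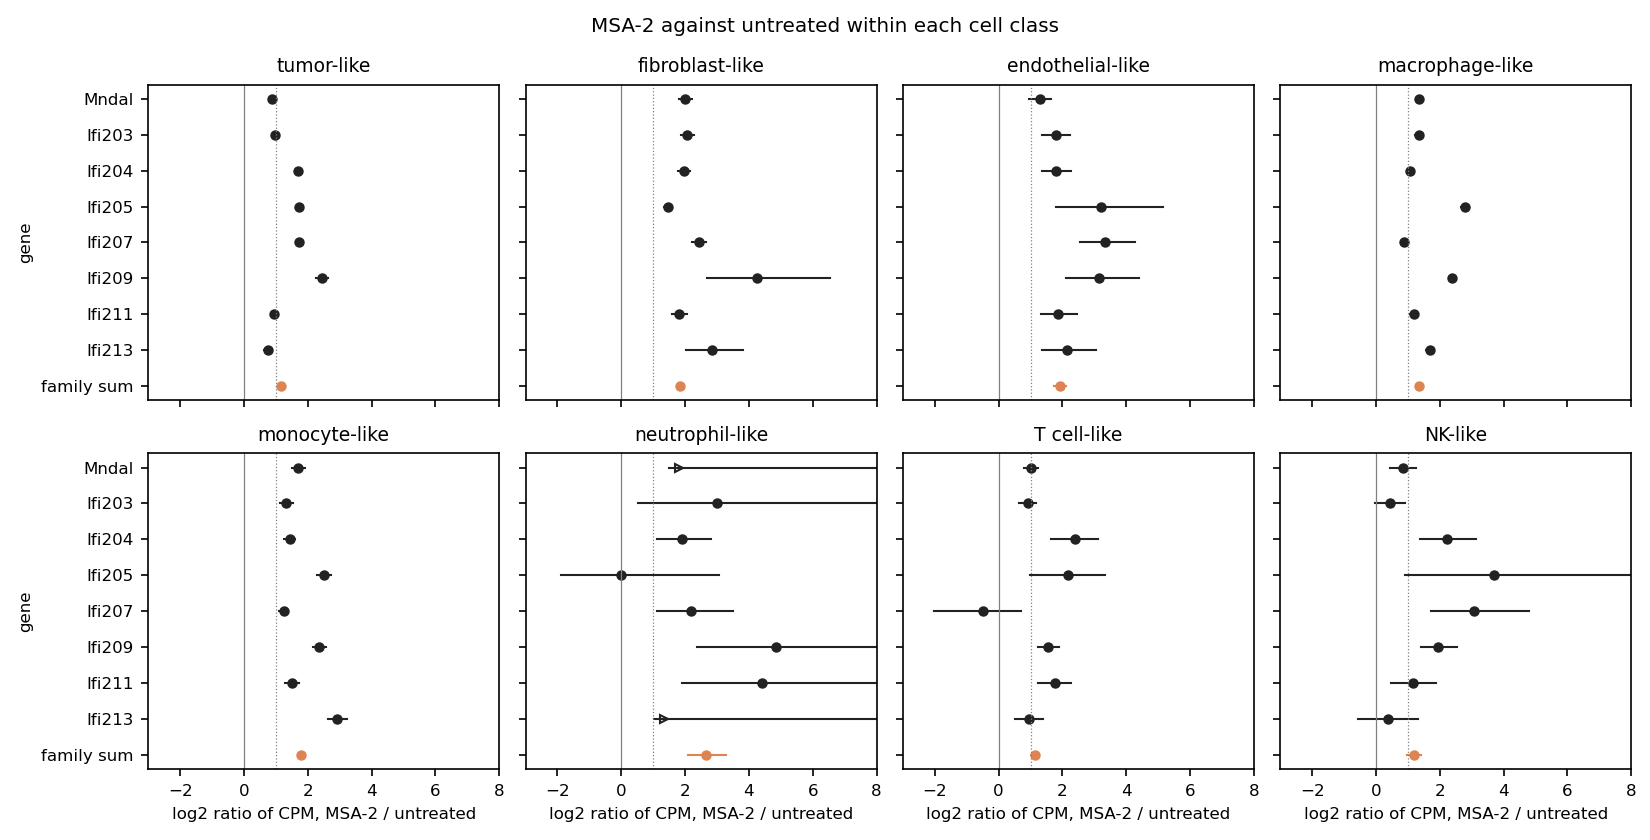
Log2 ratio of CPM, MSA-2 over untreated (x axis), for each gene and the family sum (y axis) in 8 cell classes, with bars for exact 95% intervals of counting error, clipped to the axis, and open triangles for lower bounds. The solid line marks 0 and the dotted line 1, and the family sum lies to the right of 1 in each class, from 1.15 in T cell-like to 2.65 in neutrophil-like cells.

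Mndal, named for its likeness to the human myeloid cell nuclear differentiation antigen, was detected in each class of the MSA-2 library. Its level in the untreated library was highest in T cell-like cells, 193 CPM (179 to 207), which overlaps the endothelial-like level of 150.4 CPM (120.4 to 185), followed by monocyte-like, endothelial-like, macrophage-like, NK-like, fibroblast-like and DC-like cells, whose neighbors in that order overlap, and was 53.1 CPM in tumor-like cells. Under MSA-2 it was highest in monocyte-like cells, 495 CPM (470 to 521), and the fibroblast-like, T cell-like, endothelial-like and macrophage-like classes followed between 397 and 354 CPM with overlapping neighbors. The gene was thus present in lymphocytes, myeloid cells and stroma alike.

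The ratio of Mndal was higher in fibroblast-like cells, 4.01 times from 99.0 to 397 CPM (log2 interval 1.81 to 2.21), than in T cell-like cells, from 193 to 392 CPM and 1.02 (0.81 to 1.24), and their intervals do not overlap. Tumor-like cells went from 53.1 to 98.1 CPM, 0.89 (0.84 to 0.93), short of the fold used. No Mndal UMI was seen in untreated neutrophil-like cells, where 3 counts would be 72.2 CPM, and their MSA-2 level of 252 CPM gives a log2 ratio of at least 1.80 against that floor, with a lower 95% limit of 1.5.

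Ifi203, the neighbor that overlaps Mndal, had a similar distribution. Its untreated level was highest in monocyte-like cells, 166 CPM (145 to 189), and the T cell-like, NK-like, macrophage-like, fibroblast-like and endothelial-like classes followed from 126 to 89.9 CPM with overlapping neighbors. Under MSA-2 it was highest in fibroblast-like cells, 429 CPM (414 to 446), and monocyte-like cells, 414 CPM (391 to 438), which overlap. In NK-like cells it was 109 CPM untreated and 149 CPM under MSA-2, a log2 ratio of 0.44 (-0.03 to 0.91), so a difference was not detectable at this depth.

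Ifi209 and Ifi213 were also found in lymphocytes, at lower levels than in macrophage-like and monocyte-like cells. Ifi209 was at 66.3 CPM (58.4 to 74.9) in untreated T cell-like cells, against 1.35 CPM (0.28 to 3.94) in untreated fibroblast-like and 2.26 CPM (1.99 to 2.55) in untreated tumor-like cells. Under MSA-2, with DC-like cells left aside, it was highest in monocyte-like cells, 793 CPM (761 to 826), ahead of neutrophil-like cells at 689 CPM (664 to 715) and macrophage-like cells at 439 CPM (420 to 459). The 6 DC-like cells were at 577 CPM (347 to 900), which overlaps each of these. The log2 ratio of Ifi209 was 2.39 (2.30 to 2.49) in macrophage-like, 2.36 (2.16 to 2.57) in monocyte-like, 2.45 (2.26 to 2.65) in tumor-like and 1.56 (1.23 to 1.88) in T cell-like cells.

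Ifi213 had similar untreated levels in macrophage-like cells, 78.0 CPM (74.1 to 82.1), and monocyte-like cells, 72 CPM (58.7 to 87.4). Under MSA-2 monocyte-like cells were well above the macrophage-like class, at 544 CPM (518 to 571) against 249 CPM (235 to 265), with log2 ratios of 2.92 (2.63 to 3.22) and 1.68 (1.56 to 1.79). In NK-like cells the ratio of 0.38 (-0.57 to 1.32) was within counting error of 0. Under MSA-2 its level in NK-like cells, 38.9 CPM (24.4 to 58.9), overlapped that in fibroblast-like cells, 39.0 CPM (34.3 to 44.1).

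Ifi204, which encodes the DNA-binding protein p204, had its highest levels in neutrophil-like, monocyte-like and macrophage-like cells. In the untreated library it was at 313 CPM (167 to 535) in neutrophil-like cells, from 13 UMIs. The monocyte-like level of 239 CPM (215 to 266) and the macrophage-like level of 228 CPM (221 to 235) overlap it and each other. Fibroblast-like cells were at 102 CPM (88.9 to 116) and endothelial-like cells at 83.0 CPM (61.2 to 110). T cell-like cells were at 9.47 CPM (6.67 to 13). Under MSA-2 the order was neutrophil-like at 1158 CPM, monocyte-like at 645 CPM, macrophage-like at 475 CPM and fibroblast-like at 397 CPM, with no overlap among these 4, and endothelial-like cells were at 290 CPM (257 to 326). The T cell-like level was still low at 49.6 CPM (33.5 to 70.8), although its log2 ratio of 2.39 (1.64 to 3.12) passed the fold.

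Ifi207 had its highest levels in macrophage-like and monocyte-like cells, and under MSA-2 the neutrophil-like level was 90.5% of the highest. In neutrophil-like cells Ifi207 was at 168 CPM (67.7 to 347) untreated, from 7 UMIs, and at 759 CPM (732 to 786) under MSA-2. It was at 451 CPM (442 to 461) in untreated macrophage-like cells and 353 CPM (323 to 385) in untreated monocyte-like cells. Under MSA-2 it was at 835 CPM (808 to 863) and 839 CPM (807 to 873) in these classes, which overlap. Its log2 ratio in macrophage-like cells, 0.89 (0.83 to 0.94), was the lowest of the 8 genes there and the single one short of the fold. In T cell-like cells Ifi207 was at 14.1 CPM untreated and 9.92 CPM under MSA-2, a log2 ratio of -0.50 (-2.01 to 0.71), so no difference was detectable.

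Ifi211 had neutrophil-like cells at the top under MSA-2, 507 CPM (485 to 529), ahead of monocyte-like cells at 391 CPM (369 to 414) and of fibroblast-like and macrophage-like cells, which overlap at 296 and 294 CPM. In untreated cells the monocyte-like, DC-like and macrophage-like classes overlapped, from 138 to 130 CPM. Its log2 ratio was 1.18 (1.08 to 1.28) in macrophage-like, 1.5 (1.28 to 1.73) in monocyte-like and 0.94 (0.88 to 1.0) in tumor-like cells.

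Ifi205 differed from the rest in its distribution. Among the 9 classes it was highest in fibroblast-like cells in both libraries, 363 CPM (339 to 389) untreated and 999 CPM (975 to 1024) under MSA-2, a log2 ratio of 1.46 (1.35 to 1.57). Untreated DC-like cells came next at 271 CPM (241 to 303), and within them the cDC1-like cells were at 420 CPM (370 to 474), above the fibroblast-like value with overlapping intervals, the cDC2-like cells at 145 CPM (96.1 to 209) and the Ccr7 and Ccl22 cells at 57.2 CPM (33.9 to 90.4). The conventional dendritic kinds therefore differed beyond counting error, with the first at the top.

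The ratio of Ifi205 was higher in macrophage-like cells, from 45.2 to 311 CPM and a log2 ratio of 2.78 (2.66 to 2.91), and in monocyte-like cells, from 120 to 680 CPM and 2.50 (2.28 to 2.74), than in fibroblast-like cells. In neutrophil-like cells it was at 48.1 CPM untreated, from 2 UMIs, and 47.9 CPM under MSA-2, a log2 ratio of -0.01 (-1.88 to 3.05), which the TMM shift of that class moves to 1.13. Its MSA-2 level there was 4.79% of that in fibroblast-like cells, while Ifi204 and Ifi211 had their highest level in the same neutrophil-like cells.

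**Figure D3:**
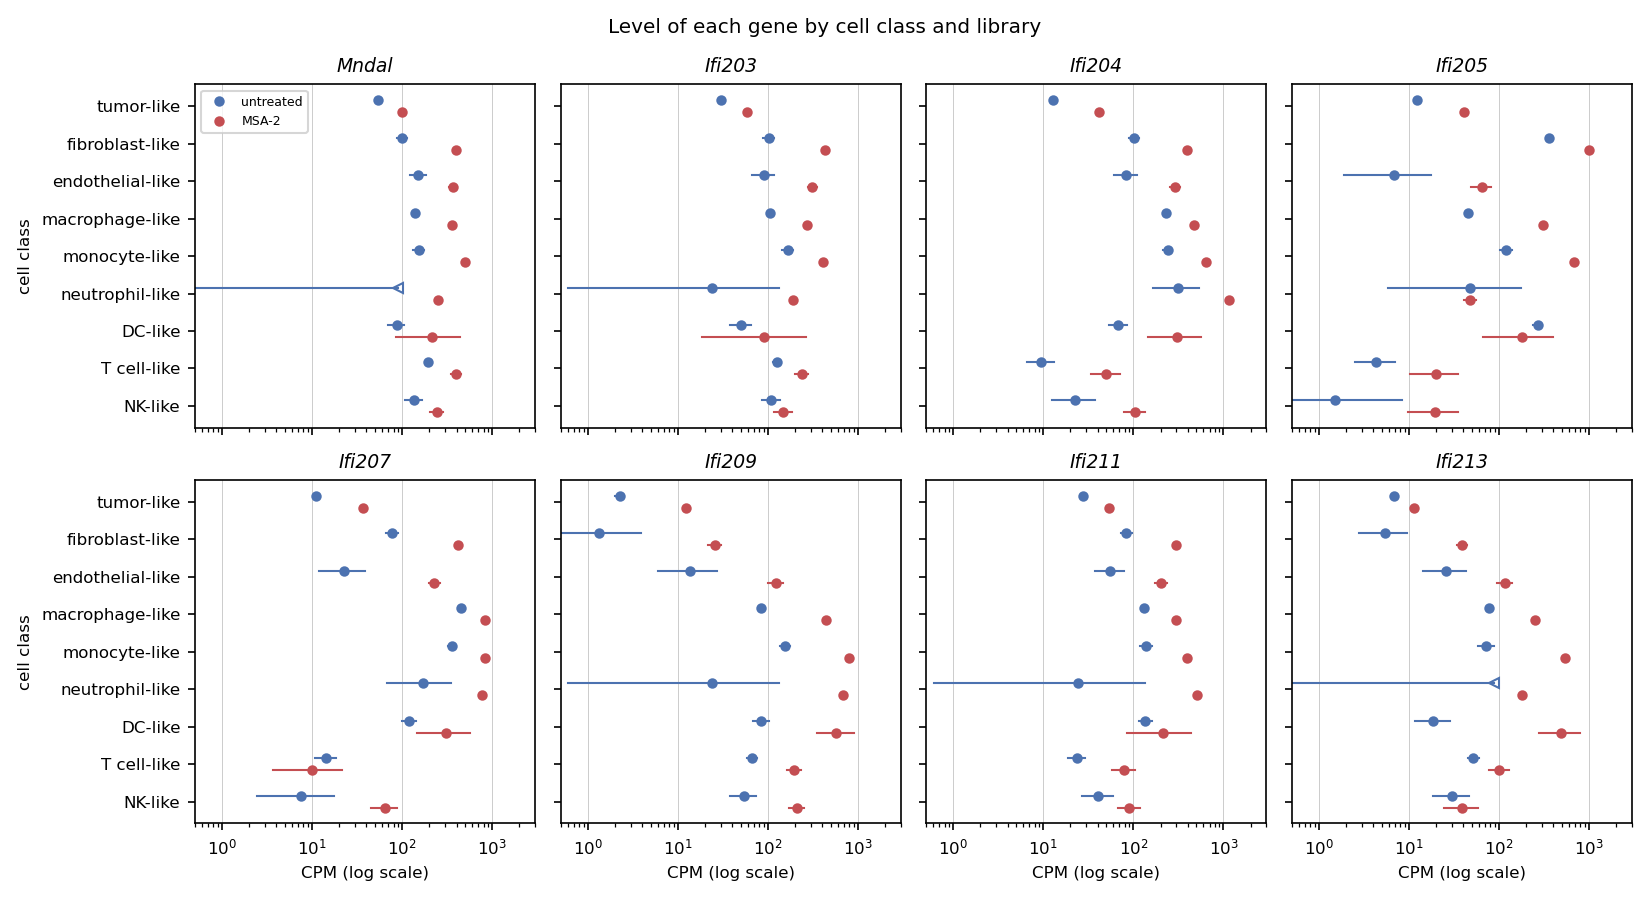
CPM of each gene (x axis, log scale) in 9 cell classes (y axis) in untreated and MSA-2 cells, with bars for exact Poisson 95% intervals and open triangles for the upper limit where no UMI was seen. Among the classes drawn, Ifi205 peaks in fibroblast-like cells at 363 and 999 CPM, and Ifi204 in neutrophil-like cells at 1158 CPM under MSA-2. The untreated neutrophil-like value of Ifi204, 313 CPM, rests on 13 UMIs and overlaps the monocyte-like and macrophage-like values.

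**Figure D4:**
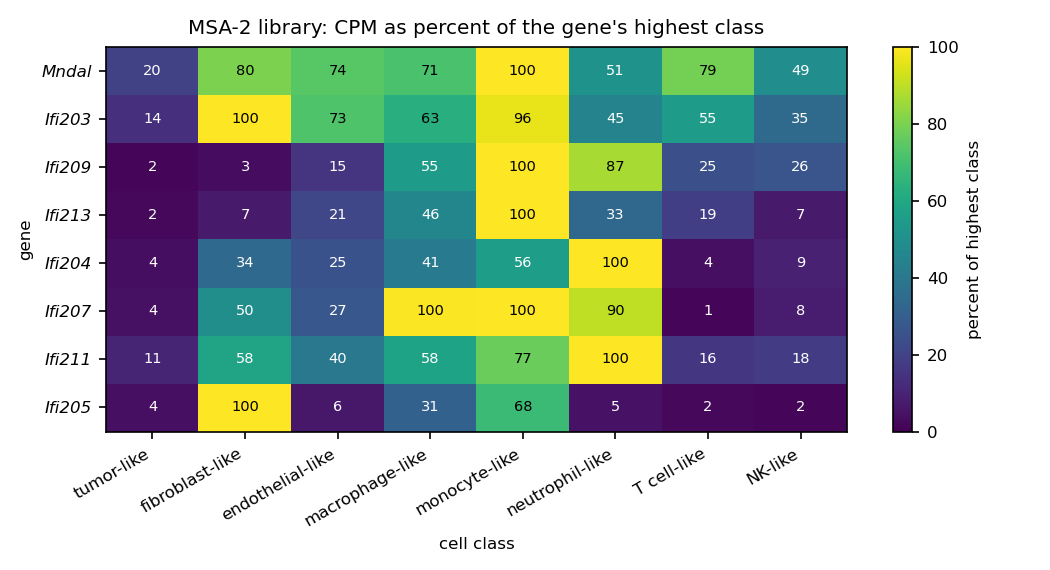
Level of each gene in MSA-2 cells as a percent of its own highest class (color), with genes on the y axis and cell classes on the x axis. T cell-like cells reach 79.1% of the highest class for Mndal and 55.4% for Ifi203, and 4.28% for Ifi204, 1.99% for Ifi205 and 1.18% for Ifi207.

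Free RNA in the droplets was checked with genes of other classes. C1qa, C1qb and C1qc summed to 16274 CPM in untreated macrophage-like cells and to 281 CPM in untreated tumor-like and 383 CPM in untreated T cell-like cells, and S100a8, S100a9 and Retnlg to 80381 CPM in MSA-2 neutrophil-like and 406 CPM in MSA-2 tumor-like cells. The level of each family gene that macrophage and neutrophil RNA would bring at these ratios was below the lower bound of the measured level in most classes. It was not for Ifi207 in T cell-like cells (10.6 CPM against 14.1 CPM measured in untreated, 8.69 against 9.92 in MSA-2), for Ifi207 and Ifi205 in untreated NK-like cells and for Ifi209 in untreated fibroblast-like cells, so these levels cannot be told from background. In tumor-like cells the measured level of Ifi207 was 1.42 times that level in untreated and 4.12 times in MSA-2, the level of Ifi209 1.56 and 2.01 times, and the level of Mndal 22.3 and 28.8 times.

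Fibroblast RNA was set against the family levels in the same way, a comparison added after the values had been seen. By the summed fibroblast list it would bring 13.6 CPM of Ifi205 to untreated and 76.6 CPM to MSA-2 tumor-like cells, against 12.2 and 40.4 CPM measured. By Col1a2, the gene of the list with the lowest ratio in tumor-like cells, it would bring 0.576 and 6.54 CPM. The ratios of the list's genes to their fibroblast-like levels ran from 0.158% (Col1a2) to 21.2% (Pdgfra) in untreated and from 0.654% to 42.6%, for the same genes, in MSA-2 tumor-like cells. The estimate thus depends on the gene used, and how much of the Ifi205 in tumor-like cells is fibroblast RNA cannot be told. The same holds for the family sum of that class. Its level and ratio are not corrected for such RNA, whose part in them was not tested. By the list, Ifi205 was also not above fibroblast RNA in untreated endothelial-like, in MSA-2 T cell-like and in NK-like cells of both libraries, nor was Ifi207 in MSA-2 T cell-like cells. In untreated neutrophil-like cells, with few UMIs, the same held for Mndal, Ifi203, Ifi205, Ifi211 and Ifi213. With macrophage, neutrophil and fibroblast RNA added up by the list, Ifi207 in tumor-like cells was not above the sum either (10.7 CPM against 11.1 CPM measured, with a lower limit of 10.5, in untreated and 40.8 against 36.6 CPM in MSA-2), nor was Ifi205 in untreated T cell-like cells. With Col1a2 in place of the list the sum for Ifi207 was 7.95 and 11.6 CPM in tumor-like cells.

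Other classes' markers differed between the libraries inside the classes. In the tumor-like class the neutrophil list (11 of 11 genes with a UMI) summed to 31.8 CPM untreated, led by Mmp9, and 511 CPM under MSA-2, led by S100a9, and the macrophage list (10 of 10 genes) to 730 and 208 CPM, led by Apoe. The fibroblast list (8 of 8 genes) summed to 1967 CPM untreated, led by Col3a1, and 2614 CPM under MSA-2, led by Dcn, in tumor-like cells, and to 663 and 1327 CPM in monocyte-like cells, led by Col3a1 in both. The neutrophil list went from 306 to 1399 CPM in monocyte-like, from 118 to 683 CPM in macrophage-like and from 47.2 to 592 CPM in fibroblast-like cells, led by S100a8 in the first and S100a9 in the others under MSA-2. Retnlg, Cxcr2 and Ly6g had no UMI in the untreated cells of these 3 classes. In fibroblast-like cells the fibroblast list itself was lower under MSA-2, at 34095 CPM against 52669 CPM. The macrophage list went from 4989 to 2892 CPM in monocyte-like cells, and the monocyte list from 3871 to 5906 CPM in fibroblast-like cells, led by Fn1 and then Plac8. In endothelial-like cells the neutrophil list went from 19.0 CPM, with 3 of 11 genes at 1 UMI or more, to 539 CPM, the macrophage list from 785 to 183 CPM and the endothelial list itself from 7963 to 5227 CPM. The neutrophil list went from 55.8 to 476 CPM in T cell-like and from 10.5 to 490 CPM in NK-like cells. Neutrophil genes were thus higher under MSA-2 in each of these classes. In fibroblast-like cells the B cell and plasma cell list summed to 1919 CPM untreated, 1883 CPM of it Igkc, and to 5.83 CPM under MSA-2. The part of these in the family values was not tested beyond the free RNA estimates.

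Shares of cells were compared at 1 depth, 1500 UMIs drawn at random from each cell. A UMI of any of the 8 genes was seen in 77.8% (76.3 to 79.2) of untreated and 98.2% (96.9 to 99.0) of MSA-2 macrophage-like cells, and in 21.8% (20.7 to 22.9) and 38.6% (37.4 to 39.9) of tumor-like cells. Cells with UMIs of 3 or more of the 8 made up 25.6% (21.2 to 30.5) of untreated and 87.2% (84.5 to 89.6) of MSA-2 monocyte-like cells, and 5.0% (2.31 to 9.28) and 63.6% (58.9 to 68.1) of fibroblast-like cells. The share was 64.8% (61.3 to 68.2) in MSA-2 macrophage-like cells, 34.2% (23.5 to 46.3) in endothelial-like, 14.4% (8.62 to 22.1) in T cell-like, 13% (6.41 to 22.6) in NK-like and 3.08% (2.65 to 3.55) in tumor-like cells. It was 66.5% (64.1 to 68.9) in MSA-2 neutrophil-like cells. Under MSA-2 joint detection at this depth was thus more common in monocyte-like, macrophage-like, neutrophil-like and fibroblast-like cells than in the other classes named. In untreated cells the fibroblast-like share overlapped those of endothelial-like cells, 5.08% (1.06 to 14.1), and T cell-like cells, 3.93% (2.81 to 5.34). The shares depend on the depth chosen.

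An Ifi205 UMI was seen in 41.1% (33.8 to 48.7) of untreated and 71.9% (67.5 to 76.0) of MSA-2 fibroblast-like cells, and in 0.81% (0.35 to 1.58) and 2.54% (0.53 to 7.25) of T cell-like cells, a class with low Ifi205. Before thinning the fibroblast-like shares were 85.6% and 97.8% and the T cell-like shares 1.47% and 9.76%, at median depths of 12059 and 13246 UMIs and of 3273 and 4027 UMIs. Thinning left out 1 untreated and 4 MSA-2 fibroblast-like cells and 31 and 5 T cell-like cells. It left 7 of 30 untreated neutrophil-like cells, so no untreated share is given for that class, and it left out 638 of its 2131 MSA-2 cells. Before thinning, any of the 8 was seen in 96.1% and 99.5% of macrophage-like and 82.3% and 94% of tumor-like cells, and 3 or more of the 8 in 58.6% and 96.9% of monocyte-like and 81.8% and 98.2% of fibroblast-like cells. In MSA-2 cells of the other classes 3 or more of the 8 were then seen in 93.9% of macrophage-like, 91.1% of endothelial-like, 71.0% of neutrophil-like, 65.7% of tumor-like, 60.3% of NK-like and 52.0% of T cell-like cells.

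The rest of the PYHIN cluster was described by a list of 9 genes, 5 of which are features. Ifi206, Ifi208 and Ifi214, close relatives of the 8, passed the fold in macrophage-like cells with log2 ratios of 2.10 (1.97 to 2.22), 2.51 (2.29 to 2.73) and 2.67 (2.33 to 3.01), from 52.8, 15.7 and 6.32 CPM. Aim2 did not, at 103 and 144 CPM in macrophage-like cells and a log2 ratio of 0.48 (0.35 to 0.61), and in T cell-like cells its ratio was 0.15 (-0.23 to 0.52). In monocyte-like cells Aim2 passed the fold, from 56.5 to 119 CPM and 1.07 (0.72 to 1.44). Ifi202b, whose protein lacks the pyrin domain, had 19 UMIs in all untreated and 12 in all MSA-2 cells.

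Other lists were set beside the family by the median log2 ratio with 1 CPM added, leaving out genes under 10 UMIs in the sum of the libraries. In macrophage-like cells the median was 1.34 for the 8 genes, 2.26 for 4 other PYHIN genes, 2.30 for the 7 IFIT and related genes, 1.41 for the 7 Schlafen genes and 0.84 for the 11 guanylate-binding and immunity GTPase genes, with -0.11 over all 14309 genes. The DNA sensing list (6 genes, among them Cgas and Tmem173, which encodes STING) had a median of 0.34, the inflammasome list (8 genes) 0.06 and the interferon receptor and JAK-STAT relay list (11 genes) 0.49. Within the relay list Usp18, an inhibitor of receptor signaling, went from 48.6 to 246 CPM, 2.34 (2.21 to 2.46), while Tmem173 of the DNA sensing list went from 56.4 to 41.9 CPM, -0.43 (-0.67 to -0.20). In macrophage-like cells 8 of 8 family genes, 7 of 7 IFIT and 7 of 7 Schlafen genes were higher under MSA-2, as were 4 of 8 inflammasome genes and 5759 of all 14309 genes.

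In tumor-like cells the medians were 1.28 for the 8 genes, 1.99 for IFIT, 1.95 for Schlafen and 0.22 for GBP genes, with 0.04 over 19334 genes. In fibroblast-like cells they were 2.03, 3.04, 2.53 and 1.54, with -0.14 over 12885 genes. In T cell-like cells they were 1.28, 3.06, 0.94 and 0.74, with -0.14 over 11507 genes. The IFIT median was above that of the family in each of these classes. In neutrophil-like cells, with few untreated UMIs, it was 2.60 against 3.64 for the family. Mndal and Ifi213 had no untreated UMI there, so their ratios in that median rest on the 1 CPM added. Against a floor of 3 counts their log2 ratios were 1.80 and 1.32, so the order of the medians in that class is not read.

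**Figure D5:**
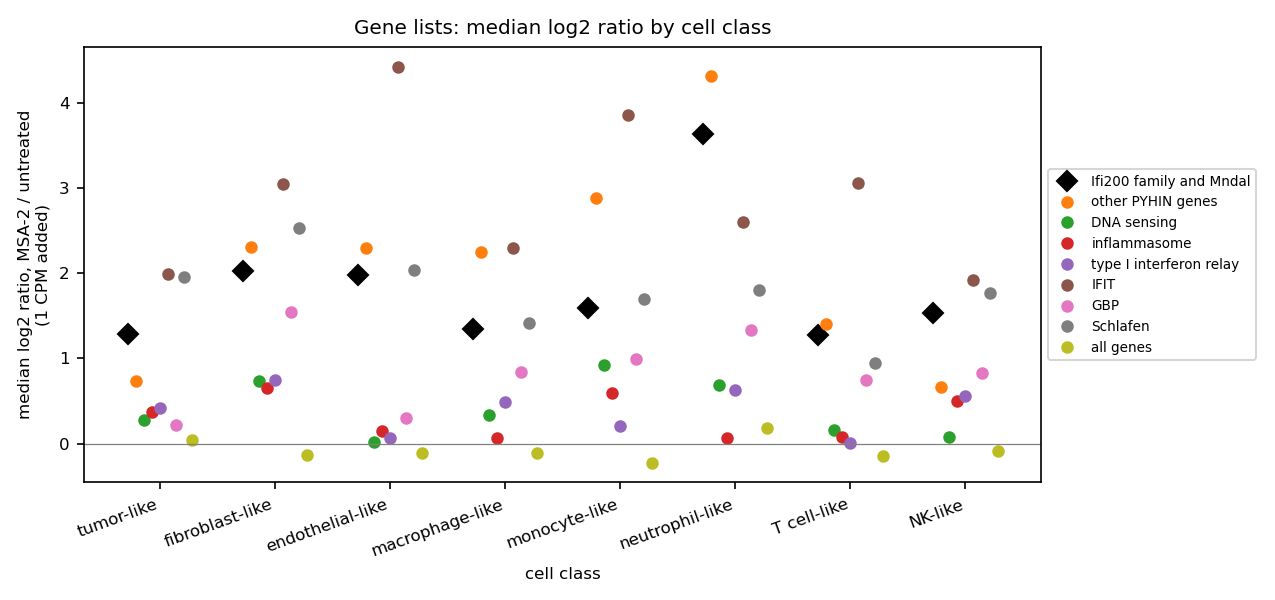
Median log2 ratio, MSA-2 over untreated with 1 CPM added (y axis), of each gene list in 8 cell classes (x axis), with black diamonds for the 8 family genes and circles for the other lists and for all genes. In macrophage-like cells the family median of 1.34 lies between the DNA sensing list at 0.34 and the IFIT list at 2.30.

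Likeness was measured over 14 points, 7 classes in 2 libraries with neutrophil-like and DC-like cells left out for their few cells, as Pearson's r of log2(CPM + 10) against 17394 genes. Points of 1 library share its depth and treatment, so r is a description. Among genes outside the 8, those most like the family sum were Irf7, an interferon regulatory factor (r = 0.94), Sptlc2 (0.93), Xdh (0.92), Trim30a (0.91) and Cpt1a (0.90). The most alike gene outside the 8 was Irf7 for Ifi204 (0.97) and Ifi211 (0.98), Ifi206 for Mndal (0.96) and Trim30a for Ifi203 (0.93). It was Pde7b for Ifi207 (0.93), Zcchc2 for Ifi209 (0.96) and 1600014C10Rik for Ifi213 (0.95). Some pairs within the 8 were closer and are given below. For Ifi205 the most alike gene was Fap, a fibroblast surface protease (0.94), which was at 76.0 and 335 CPM in fibroblast-like cells. In MSA-2 neutrophil-like cells, outside these points, Fap was at 195 CPM and Ifi205 at 47.9 CPM.

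Among the 8 genes the most alike pairs were Ifi204 and Ifi211 (r = 0.98), Mndal and Ifi203 (0.95), Ifi204 and Ifi207 (0.94) and Ifi209 and Ifi213 (0.93), over the same 14 points. The least alike pair was Ifi205 and Ifi209 (0.24). Ifi205 and Ifi211, whose transcript ends share the most sequence, had an r of 0.84 over points that leave out the neutrophil-like cells in which they differed, and Mndal and Ifi203 overlap in the genome.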

How the data were processed

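The authors made 10x Chromium 3′ (v3.1) libraries and deposited UMI counts for each gene in each barcode, as counted and not normalized. Their processing notes name Cell Ranger 7.0.0, Seurat 4.3.0 and mm10, and the file headers give Cell Ranger 7.0.1. The study's methods name later versions of both programs, so the sources differ. Whether intronic reads were counted is not given in the sources used here.

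Barcodes under 500 genes or above 20% mitochondrial UMIs were dropped, and doublets called by Scrublet in scanpy 1.11.5 (734 untreated, 570 MSA-2) were removed. Classes were gated on marker UMIs per 10000, with thresholds set after marker values had been seen. For example, macrophage-like cells needed 125 and tumor-like cells 15. Within 1.5 times the threshold lay 1067 untreated and 896 MSA-2 tumor-like cells, 215 of 360 and 405 of 744 monocyte-like cells, and 18 of 181 and 207 of 449 fibroblast-like cells. The members and lists were chosen with earlier results of these data known. Genes named are the 8, those of the lists and, outside the 8, the 5 most like the family sum and the 1 most like each gene. Markers, leading genes and dendritic kinds were named besides. With 1 library per condition no test was made. Ratios have exact conditional binomial, sums Poisson and shares Clopper-Pearson intervals at 95%. A side at 0 was taken at 3 counts. The ratio step was checked on simulated counts. Alternatives covered the cell filter, doublets, gate, scaling, weighting, thinning, added CPM and count minimum. Python 3.11.15, numpy 2.4.6, scipy 1.17.1, pandas 2.3.3, matplotlib 3.10.9, R 4.3.3 and edgeR 4.0.16 (TMM factors only) were used.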

Additional observations from a re-analysis of the deposited data

How the results depend on the processing

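The family sum kept its direction in every class under every alternative run. None of these alternatives corrected for free RNA, so they do not show whether the tumor-like direction would hold after such a correction. With TMM factors its log2 ratio was 1.09 in tumor-like, 2.06 in fibroblast-like, 1.41 in macrophage-like, 2.08 in monocyte-like and 3.79 in neutrophil-like cells and 1.26 over all cells. With equal weight per cell it was 1.08 in tumor-like and 1.94 in fibroblast-like cells and 1.66 over all cells. With doublets kept it was 1.20 in tumor-like and 1.40 in macrophage-like cells. Without the gene with the most UMIs it was 1.30 in tumor-like (Mndal), 2.09 in fibroblast-like (Ifi205), 2.17 in endothelial-like (Mndal), 1.56 in macrophage-like and 1.93 in monocyte-like cells (Ifi207), and 1.33 over all cells (Mndal).

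The stricter cell filter (1000 genes, 10% mitochondrial UMIs) left 1 untreated neutrophil-like cell. The family sum ratio was then 1.11 over all cells and 3.93 in the neutrophil-like class. Genes passing the fold are not counted for the neutrophil-like class under this filter, because its untreated side is 1 cell. In that class the ratios of Mndal (-1.52), Ifi203 (-1.94), Ifi209 (-0.21), Ifi211 (-0.57) and Ifi213 (-2.30) turned negative, against a floor of 3 counts in 1 cell, so the depth of that cell sets them. With at least 200 UMIs required, 5 genes passed the fold in endothelial-like, 2 in T cell-like and 0 in NK-like cells, since fewer genes could be counted. Of the single-gene values under the alternatives, 384 stayed within their interval, 41 moved beyond it with the same direction and 5 reversed. The neutrophil-like ratio of Ifi205 (-0.01) was above 0 and within its interval under 5 alternatives, by up to 1.13 with TMM factors, and beyond it at -3.63 under the stricter cell filter. Neutrophil-like ratios are limited by 41546 untreated UMIs, and no value here has a replicate.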

Other observations

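Cells that passed no gate had a family sum of 186 CPM (181 to 190) in untreated and 727 CPM (719 to 736) in MSA-2 tumors. Among them Ifi205 was at 18.1 CPM untreated and 118 CPM under MSA-2. Cells that passed several gates had a family sum of 1256 CPM (1194 to 1320) and 3807 CPM (3721 to 3895).

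T cell-like cells with a Cd8a or Cd8b1 UMI had 192 CPM (176 to 210) of Mndal in the untreated library, and those without had 193 CPM (169 to 219), so these did not differ beyond counting error.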
